A study of Mus musculus with 8 samples.

Results

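The 9 genes described here were grouped as genes of chloride and bicarbonate transport in fluid secretion, namely Ano1, Cftr, Clcn3, Slc12a2, Slc12a8, Slc4a2, Slc4a4, Slc4a7 and Slc26a6. What each protein carries in this gland was not measured. They were taken by symbol from the 24552 genes in the deposited table of raw counts, and all 9 were found there. Exorbital lacrimal glands (LGs) of female C57BL/6J mice were sequenced in 4 mice fed ad libitum (AL) and 4 mice under 40% calorie restriction (CR). Mice entered the diets when 6 to 7 months old and, after 4 months, glands of both groups were taken at 10 to 11 months. CR mice were fed once a day in the late afternoon, and the study used mice of 2 cohorts without saying which gave these glands. No allele or transgene was involved, and the comparison asks which transporters of fluid secretion differed between the diets. Bulk RNA of a whole gland cannot separate fewer cells of a type from less RNA per cell.

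Exocrine glands make their fluid by moving chloride. In the accepted scheme, the sodium-potassium-chloride cotransporter encoded by Slc12a2 and chloride-bicarbonate exchangers such as Slc4a2 load the cell with chloride across its basolateral side, and bicarbonate enters with sodium through Slc4a4 and Slc4a7. The calcium-activated channel Ano1 and the cyclic AMP-dependent channel Cftr let chloride and bicarbonate out on the apical side, where Slc26a6 exchanges them, and sodium and water follow. Clcn3 is a chloride-proton exchanger of endosomes, and Slc12a8 is a relative of Slc12a2 in the cation-chloride cotransporter family.

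Libraries held between 12051881 and 22156511 counted reads (n = 8), made from RNA 3' ends, so that counts do not grow with transcript length. Levels are given as CPM, a gene's counts scaled to a common library total after relative log expression (RLE) adjustment, and a floor of 3 counts was worth between 0.152 and 0.231 CPM, covering counting error only. Of the 9 genes, 7 were counted often enough to be tested, while Cftr and Slc26a6 were not. CR replicate 4 stood apart from the other CR libraries, and transcripts listed as markers of the parotid gland, a salivary gland, differed between diets. The tissue that gave these transcripts was not tested, and the study reported higher Prb1 under CR in further LG samples by quantitative PCR. All 7 parotid markers listed (Amy1, Bpifa2, Dnase1, Prb1, Prh1, Prp2, Prpmp5) were higher in CR, 3 of them (Prb1, Prh1 and Prp2) past the thresholds. Prh1 and Prp2 were each at 0 in 2 libraries. They were counted often enough to be tested only through the CR libraries, so their calls are given as a description. Their summed level was 25286, 14828, 10641 and 2018 CPM in AL replicates 1 to 4 and 214889, 237668, 186892 and 19921 CPM in CR replicates 1 to 4. The 8 markers listed for lacrimal acini summed to between 114544 and 165800 CPM in AL, between 58185 and 86760 CPM in CR replicates 1 to 3 and to 158715 CPM in CR replicate 4, sums carried mainly by Scgb2b2 and Scgb2b24. Of 7 tested, 2 (Scgb1b27 at a log2 fold change of 2.68 and Scgb2b27 at 2.19, neither called) were higher and 5 lower, with Pigr called lower at -0.95. Prol1 was not tested and had at most 96 counts in a library. It ranged from 0 to 0.49 CPM in AL and, higher in every library, from 0.67 to 5.68 CPM in CR.

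The promoters of Slc12a8 and Cftr are shown because these genes, with Slc12a2, had the largest differences between mean levels of the diets, relative to AL. Sequences are from RefSeq for build GRCm38.p6, read on the plus strand from 250 bases before the start site to 50 bases into the gene, at chr16:33517078-33517377 for Slc12a8, the first of its 3 listed start sites, and at chr6:18170437-18170736 for Cftr. Capitals mark matches on either strand to the GC box GGGCGG or the CCAAT box CCAAT, with overlapping matches merged.
Slc12a8: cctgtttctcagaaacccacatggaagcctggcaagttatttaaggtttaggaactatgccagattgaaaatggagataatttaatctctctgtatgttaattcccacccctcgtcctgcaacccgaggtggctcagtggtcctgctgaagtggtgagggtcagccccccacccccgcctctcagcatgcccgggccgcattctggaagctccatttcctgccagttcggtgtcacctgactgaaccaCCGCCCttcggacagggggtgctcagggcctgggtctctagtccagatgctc
Cftr: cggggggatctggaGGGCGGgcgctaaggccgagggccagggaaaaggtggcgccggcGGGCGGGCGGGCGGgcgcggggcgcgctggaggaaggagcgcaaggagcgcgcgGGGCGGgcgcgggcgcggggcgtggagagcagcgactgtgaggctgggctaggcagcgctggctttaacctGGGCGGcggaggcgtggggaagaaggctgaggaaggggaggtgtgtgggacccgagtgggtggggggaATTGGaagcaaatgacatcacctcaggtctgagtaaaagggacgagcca
The Cftr window held 6 GC boxes and 1 CCAAT box, the Slc12a8 window 1 GC box. Of the 32851 promoters of this length in the table, 35.7% held a GC box and 37.4% a CCAAT box. Entries were found for 8 of the 9 genes. Among their 13 windows, the E-box CACGTG, held by 7.15% of all promoters, was in none, the cyclic AMP response element TGACGTCA, held by 1.79%, was in 1, at Clcn3, and the TATA box TATAAA, held by 13.6%, was in 1, at Slc4a7. A match describes the letters of the window only.

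Slc12a2, Slc12a8 and Cftr lay above every AL library in 3 of 4 CR libraries. In the edgeR fit to all libraries Slc12a8 alone among the 7 passed both thresholds used in the study, and with DESeq2, the tool of the study, Slc12a2 passed them too (2.32, adjusted p = 0.0161). The thresholds ask for at least a 1.5-fold difference and for an adjusted p below 0.05 (quasi-likelihood test of edgeR with Benjamini-Hochberg adjustment for all 11211 genes tested). The edgeR fit thus called 1 of 7 tested genes, where 1.98% of all genes tested were called either way and 1.20% were called higher in CR. At an unadjusted p under 0.05 there were 4 of the 7, with 16.7% among all genes tested. In none of the 7 were the diets free of overlap, as they were in 9.79% of all genes tested (4.58% with every CR library above AL and 5.20% with every CR library below). The median log2 fold change of the 7 was 0.10, beside 0.01 for all genes tested.

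**Figure D1:**
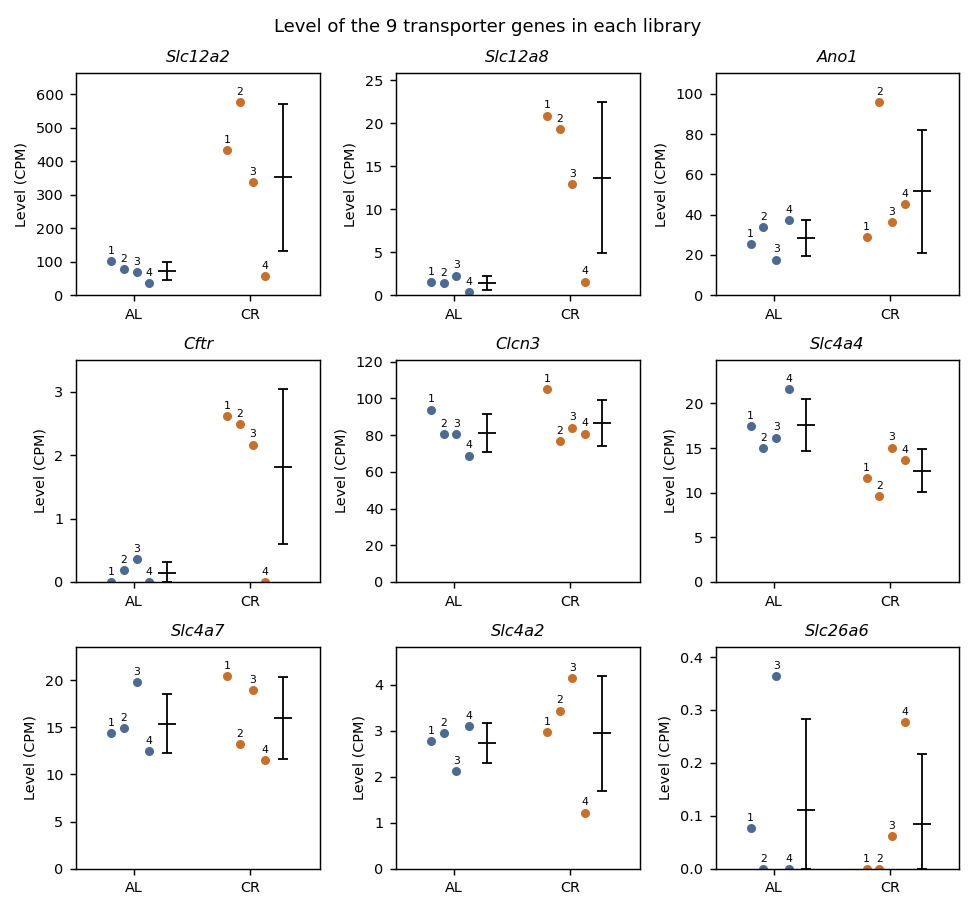
Level of each gene in CPM (vertical axes, from 0) in the 4 AL and 4 CR libraries, numbered by replicate, with the mean and SD of each diet as bars cut at 0. In Slc12a2, Slc12a8 and Cftr, CR replicates 1 to 3 lie above all AL libraries and CR replicate 4 lies among them.

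Slc12a2 (Gene ID 20496, chromosome 18 from 57878678 to 57946821 on GRCm38, plus strand) had levels of 100.9, 77.3, 68.2 and 36.1 CPM in AL replicates 1 to 4. In CR replicates 1 to 4 it had 433, 576, 338 and 57.4 CPM. CR replicates 1 to 3 were above every AL library and CR replicate 4 was below 3 of the 4 AL libraries. Means were 70.6 ± 26.8 CPM for AL and 351 ± 219 CPM for CR (SD, n = 4 each), a fitted fold of 4.98. On the log2 scale this was 2.32 (standard error 0.54, 95% interval 1.14 to 3.49), and the adjusted p from edgeR was 0.0505, just short of the threshold. With CR replicate 4 left out it was 2.67, with 0.000522 as adjusted p from edgeR, and in the other 7 fits that left out a library the adjusted p lay between 0.0860 and 0.160 and Slc12a2 was not called.

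Slc12a2 made up 39.4, 34.2, 32.9 and 20.1% of the summed CPM of the 9 genes in AL replicates 1 to 4. In CR replicates 1 to 3 it made up 69.3, 72.3 and 66.1%, and in CR replicate 4 27.1%. The ratio of its level to that of Slc4a4 ranged from 1.67 to 5.77 in AL, from 22.5 to 60.1 in CR replicates 1 to 3 and was 4.22 in CR replicate 4. The ratio to Ano1 was 0.973 to 4 in AL, 6.01 to 15.1 in CR replicates 1 to 3 and 1.27 in CR replicate 4. The ratio to Slc12a8 ran the other way, with 30.2 to 118 in AL, 20.8 to 29.9 in CR replicates 1 to 3 and 36.9 in CR replicate 4.

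Slc12a8 (Gene ID 171286, chromosome 16 from 33517328 to 33664135, plus strand) was a rare transcript, with 1.46, 1.41, 2.26 and 0.304 CPM in AL replicates 1 to 4. It had 20.9, 19.3, 12.9 and 1.55 CPM in CR replicates 1 to 4, from 295, 326, 208 and 28 counts. As for Slc12a2, CR replicates 1 to 3 were above every AL library and CR replicate 4 was within the AL range. CR exceeded AL by 3.35 on the log2 scale (95% interval 1.83 to 4.87, standard error 0.70), and edgeR gave an adjusted p of 0.0335. Of the 8 fits leaving out a library, the one without CR replicate 4 called it (3.73, edgeR adjusted p = 0.000556), and in the others the adjusted p lay between 0.0567 and 0.116. Of the 75-base windows in the last 600 bases of its transcripts, 0.304% were shared with another gene, Gm47372, and those of the other 8 genes were shared with none.

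Among the apical channels, Ano1 (Gene ID 101772, chromosome 7 from 144588549 to 144751974, minus strand) had 25.2, 33.9, 17.6 and 37.1 CPM in AL replicates 1 to 4. In CR replicates 1 to 4 it had 28.7, 95.9, 36.2 and 45.1 CPM. CR replicate 2 was the highest library by far, and here CR replicate 4 was second highest and above every AL library. CR exceeded AL by 0.86 on the log2 scale (95% interval 0.09 to 1.62, standard error 0.35). From edgeR the unadjusted p was 0.0318 and the adjusted p 0.239, so Ano1 was not called. When CR replicate 2 was left out, the difference shrank to 0.37.

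Cftr (Gene ID 12638, chromosome 6 from 18170687 to 18322768, plus strand) was close to absent from the counts under AL, with 0, 3, 5 and 0 reads in AL replicates 1 to 4. CR replicates 1 to 3 had 37, 42 and 35 reads, or 2.62, 2.49 and 2.17 CPM, and CR replicate 4 had 0. A count of 0 allows up to the floor of 3 counts, so a low level in AL replicates 1 and 4 and in CR replicate 4 was not detectable at this depth. Means were 0.137 ± 0.175 CPM for AL and 1.82 ± 1.23 CPM for CR (SD, n = 4 each), and an exact permutation test, two-sided, gave p = 0.143, where 4 against 4 libraries allow no p below 0.0286. The exact permutation p was also 0.143 when any 1 of the other 7 libraries was left out, while leaving out CR replicate 4 removes the only overlap and so fixes p at its smallest value. Cftr can pass the filter only through the CR libraries where it is high, so its calls in the edgeR fits that left out CR replicate 4 are given as a description. With no filter on low counts, the adjusted p from edgeR was 0.0838. The exons of Cftr overlap those of Gm15592 on the other strand, and the strand setting of the counting is not given in the sources used here.

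The bicarbonate cotransporters did not follow Slc12a2. Slc4a4 (Gene ID 54403, chromosome 5 from 88886818 to 89239653, plus strand) had 17.5, 15.0, 16.2 and 21.6 CPM in AL replicates 1 to 4. In CR replicates 1 to 4 it had 11.6, 9.59, 15.0 and 13.6 CPM. In 3 of the 4 CR libraries it lay below every AL library, and CR replicate 3 was level with AL replicate 2. Its log2 fold change of -0.50 (95% interval -0.93 to -0.06, standard error 0.20) was the only negative one among the 7. From edgeR the unadjusted p was 0.0296 and the adjusted p 0.232, so Slc4a4 was not called. Slc4a7 (Gene ID 218756, chromosome 14) ranged from 12.5 to 19.7 CPM in AL and from 11.5 to 20.4 CPM in CR, with a log2 fold change of 0.06 (95% interval -0.44 to 0.56), and the ranges overlapped almost fully.

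Both chloride-bicarbonate exchangers were rarely counted. Slc4a2 (Gene ID 20535, chromosome 5) had 2.77, 2.94, 2.11 and 3.09 CPM in AL replicates 1 to 4. It had 2.97, 3.43, 4.15 and 1.22 CPM in CR replicates 1 to 4, so that CR held both the highest and the lowest library. The log2 fold change of 0.10 had a 95% interval from -0.74 to 0.94, which leaves room for a change of 1.5-fold in either direction, and exons of 2 genes on the other strand, Fastk and Gm22333, overlap those of Slc4a2. Slc26a6 (Gene ID 171429, chromosome 9) had 6 reads in the AL and 6 in the CR libraries together, above the floor in 1 library of each diet, and no difference could be read at this depth.

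Clcn3 (Gene ID 12725, chromosome 8 from 60910389 to 60983300, minus strand) was the steadiest gene of the family. It had 93.9, 80.7, 80.7 and 68.8 CPM in AL replicates 1 to 4 and 105.1, 76.9, 84.1 and 80.9 CPM in CR replicates 1 to 4. Its coefficient of variation was 12.7% in AL and 14.5% in CR, against 38.0% and 62.3% for Slc12a2. Its log2 fold change was 0.10 with a 95% interval from -0.27 to 0.47, which does not reach a fold of 1.5 (0.585 on the log2 scale) in either direction.

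Ordered by mean level in AL, Clcn3 and Slc12a2 came first at 81.0 and 70.6 CPM and did not differ beyond their SDs of 10.3 and 26.8 CPM. Ano1 followed at 28.4 CPM, then Slc4a4 at 17.6 and Slc4a7 at 15.4 CPM, which lay within their spread (SD 2.89 and 3.09 CPM). Slc4a2 and Slc12a8 stood at 2.73 and 1.36 CPM, and Cftr and Slc26a6 at 0.137 and 0.110 CPM, both under the floor. By the means in CR, Slc12a2 came first at 351 CPM against 86.7 CPM for Clcn3. Slc12a8 at 13.7 CPM lay beside Slc4a4 at 12.5 and Slc4a7 at 16.0 CPM, which changed places. CR replicate 4 did not have this order. There Clcn3 at 80.9 CPM was above Slc12a2 at 57.4 CPM, and Slc12a8 at 1.55 CPM was below Slc4a4 at 13.6 and Slc4a7 at 11.5 CPM.

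**Figure D2:**
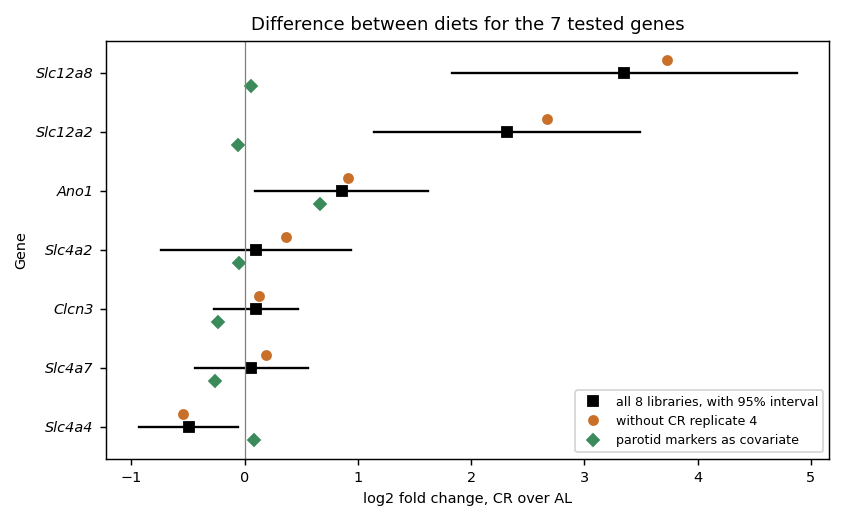
log2 fold change of CR over AL (horizontal axis) for the 7 tested genes: squares with 95% intervals are the fit to all 8 libraries, circles the fit without CR replicate 4 and diamonds the fit with the mean log2 CPM of 7 parotid markers as a covariate. Slc12a8 and Slc12a2 lie at 3.35 and 2.32 with all libraries, at 3.73 and 2.67 without CR replicate 4, and at 0.06 and -0.06 with the covariate.

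Inside each diet, the order of the libraries by Slc12a2 was that of the summed parotid markers. Within AL, both Slc12a2 and the summed markers fell in the order of replicates 1, 2, 3 and 4, and within CR in the order of replicates 2, 1, 3 and 4. The sum was carried mainly by Bpifa2 and Amy1, and in AL replicate 4 by Dnase1, at 1781 of 2018 CPM. Some single markers had other orders. Within CR, Bpifa2 fell in the order of replicates 1, 2, 3 and 4, and Prb1, Prh1 and Prp2 were lowest in replicate 3. Within AL, Dnase1 was lowest in replicate 3. CR replicate 4, with a marker sum of 19921 CPM, lay between AL replicates 1 and 2 at 25286 and 14828 CPM, and its Slc12a2 level of 57.4 CPM was below their 100.9 and 77.3 CPM. By the mean log2 CPM of the markers, which weights the 7 equally, AL replicates 2 and 3 changed places (5.47 and 6.02) and CR replicate 4, at 9.41, lay above every AL library. Slc12a8 had its lowest level in AL replicate 4 and, within CR, in CR replicate 4, as the sum and the mean log2 CPM of the markers did. Its highest AL level was in replicate 3. Ano1 did not share this order, since AL replicate 4 with the lowest marker sum had the highest Ano1 level of that diet.

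**Figure D3:**
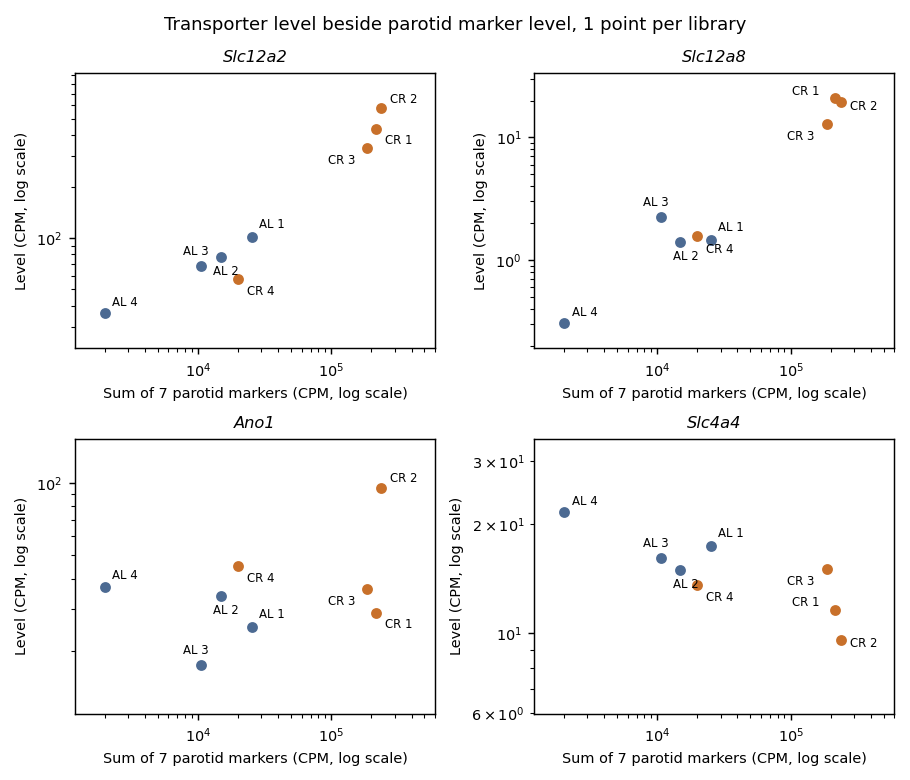
Level of Slc12a2, Slc12a8, Ano1 and Slc4a4 (vertical axes, CPM, log scale) against the summed level of 7 parotid markers (horizontal axes, CPM, log scale), 1 point per library, labelled by diet and replicate. CR replicate 4, at 19921 CPM of markers, lies among the AL libraries for Slc12a2 and Slc12a8.

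When the mean log2 CPM of the parotid markers entered the fit, the diet term on the log2 scale came to -0.06 for Slc12a2 (standard error 0.82), 0.06 for Slc12a8 (1.37), 0.67 for Ano1 (0.75) and 0.09 for Slc4a4 (0.36), and no member was called. That score ranged from 2.39 to 7.47 in AL and from 9.41 to 12.9 in CR without overlap, so in this fit diet and parotid marker level cannot be told apart. The other marker lists are given by their sums and counts. The 8 leukocyte markers summed to between 71.7 and 257 CPM in AL and between 37.2 and 67.6 CPM in CR, with 4 of 4 tested lower and none called. The 7 duct markers summed to between 155 and 199 CPM in AL and between 212 and 284 CPM in CR, with 5 of 6 tested higher and none called. The 5 general acinar markers summed to between 428 and 597 CPM in AL and between 535 and 705 CPM in CR, with 4 of 4 tested higher and none called. The 6 myoepithelial and basal markers summed to between 81.0 and 127 CPM in AL and between 45.6 and 84.3 CPM in CR, with 5 of 5 tested lower and none called. The 6 fibroblast markers summed to between 158 and 285 CPM in AL and between 134 and 202 CPM in CR. Of these, 5 of 6 tested were lower, with Col1a1 and Col3a1 called, and Dcn was higher at a log2 fold change of 0.22. The 6 adipose markers summed to between 5.83 and 11.8 CPM in AL and between 18.7 and 62.7 CPM in CR, with 4 of 4 tested higher and Fabp4 called. The part of these cell types in the transporter levels was not tested.

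Profiles over the 8 libraries were compared by the root mean square difference of log2 CPM after each gene was centred on its own mean, as a description without a test. Among 11210 other genes, the nearest to Slc12a2 were Galnt6 (0.244), which encodes an enzyme that starts mucin-type glycans, Atp1b1 (0.255), a subunit of the sodium pump, Tmprss2 (0.265), a serine protease of epithelial membranes, Sh3bgr (0.285) and Tgfb2 (0.315), a TGF-beta ligand. Within the family Slc12a8 came closest, at rank 52 with 0.654, and Slc4a4 was farthest, at rank 8739 with 1.68. The nearest to Ano1 were Mif4gd (0.208), Entpd2 (0.221), Slc17a5 (0.230), Trak2 (0.248) and 5031425E22Rik (0.257), and Slc12a2 was at rank 10443 with 1.27. Counted from Slc12a2, the same distance put Ano1 at rank 1919.

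The other genes of chloride and bicarbonate transport were listed by gene family. Of 85 symbols 81 were in the table and 33 were tested, of which 2 were called higher and 0 lower, with 21 above and 12 below a log2 fold change of 0. At an unadjusted p under 0.05 in edgeR's quasi-likelihood test, 4 were higher and 3 lower, beside 16.7% of all genes tested in either direction. Of all genes tested 1.20% were called higher and 0.785% lower, and 51.1% lay above 0. The median log2 fold change of the 33 was 0.11. Both genes called belong to the regulators.

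Wnk2 (Gene ID 75607, chromosome 13 from 49036303 to 49148014, minus strand) encodes a kinase of the WNK family, which controls cation-chloride cotransporters through the kinases Stk39 and Oxsr1. It had 9.40, 12.5, 12.2 and 11.9 CPM in AL replicates 1 to 4. In CR replicates 1 to 4 it had 27.7, 34.6, 29.8 and 32.7 CPM. All CR libraries, CR replicate 4 among them, lay above all AL libraries, a separation upward found in 4.58% of all genes tested. The mean rose from 11.5 ± 1.42 to 31.2 ± 3.05 CPM (SD, n = 4 each), a log2 difference of 1.44 (standard error 0.17) with 0.00389 as adjusted p from edgeR. Wnk2 was called in each of the 8 fits that left out a library, with 1.36 as the lowest log2 fold change. In the fit with the parotid covariate the value was 1.57 (standard error 0.35), with an unadjusted p of 0.000868 and an adjusted p of 0.312 from edgeR.

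Ppp1r1b (Gene ID 19049, chromosome 11 from 98348404 to 98357796, plus strand), which encodes an inhibitor of protein phosphatase 1, had means of 27.7 ± 6.78 CPM under AL and 64.5 ± 21.9 CPM under CR (SD, n = 4 each) and was called higher. CR replicates 1 to 3 had 83.5, 69.7 and 72.0 CPM and CR replicate 4 had 32.9 CPM, below AL replicate 3 at 35.9 CPM. This gave a log2 difference of 1.22 (standard error 0.28) and, from edgeR, an adjusted p of 0.0451. Of the 8 fits that left out a library, only the one without CR replicate 4 called it. Its exons overlap those of 1700003D09Rik on the other strand. The remaining regulators ran down to Ahcyl2, which encodes a relative of the bicarbonate cotransporter regulator Ahcyl1, at a log2 fold change of -0.84 (95% interval -1.49 to -0.18, not called).

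The transporter families outside the 9 genes held no called gene in the fit to all libraries. Among cation-chloride cotransporters 4 of 7 were tested, from Slc12a7, a potassium-chloride cotransporter, at a log2 fold change of -0.14 to Slc12a4 at 0.54, with a median of 0.41. In the SLC4 family only Slc4a11 was tested, at 1.19 (95% interval -0.02 to 2.41). In the SLC26 family, Slc26a2 and Slc26a11 had log2 fold changes of -0.06 and 0.19. Of the chloride channel genes 13 of 37 were tested, with a median of 0.10, from Clcn5, an endosomal relative of Clcn3, at -0.69 to Ttyh3 at 1.13. The sodium-proton exchangers had a median of -0.71 over 4 tested genes, with 4 of 4 below 0, from Slc9a7 at -1.33 (95% interval -2.49 to -0.17) to Slc9a8 at -0.09, which lay above 0 without AL replicate 1 or CR replicate 2.
Without overlap were 3 of the 33, beside 9.79% of all genes tested, namely Wnk2 and a pair singled out here after their values were seen. Slc9a9, a sodium-proton exchanger, had 3.00 to 5.39 CPM in AL and 1.24 to 2.12 CPM in CR, a log2 difference of -1.20 with 0.109 as adjusted p from edgeR, and was called in no fit. The channel-family gene Ano10 had 1.22 to 2.48 CPM in AL and 3.00 to 6.13 CPM in CR, a log2 difference of 1.13 with 0.117 as adjusted p from edgeR, and without CR replicate 4 it was called at 1.29 (edgeR adjusted p = 0.0476). In the lists, 48 genes were counted too rarely for the test. Of these 48, the highest level in any library was 1.77 CPM, and 12 had no read in any library, among them the epithelial sodium-proton exchangers Slc9a2 and Slc9a3 and the channel Best2, named here after their values were seen.

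**Figure D4:**
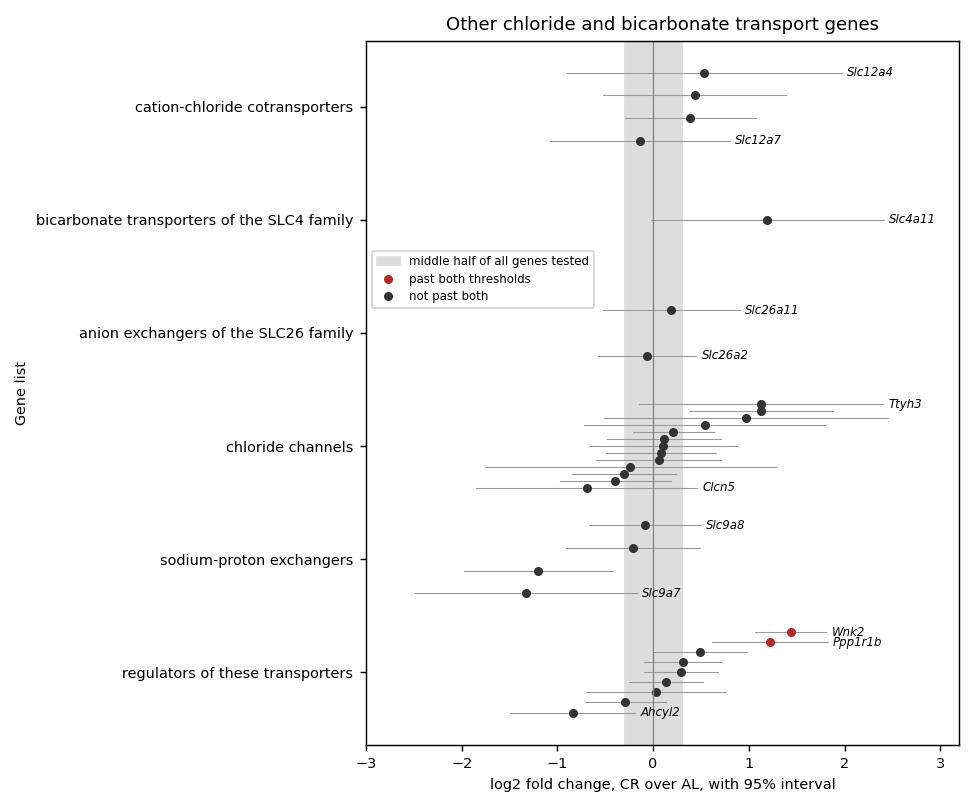
log2 fold change of CR over AL with 95% intervals (horizontal axis) for the 33 tested genes of the 6 lists (vertical axis), with genes past both thresholds in red and the interquartile range of all genes tested in grey. Wnk2 and Ppp1r1b, at 1.44 and 1.22, are the genes past both thresholds.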

How the data were processed

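Total RNA of 8 LGs was made into Lexogen QuantSeq 3' libraries and sequenced in single reads of 75 bases. After trimming (cutadapt) and alignment to mm10 (STAR), the authors counted reads per gene (HTSeq), and they deposited these raw counts. Tool versions, annotation and strand setting are not given in the sources used here. A second deposited table holds log2 values of the counts over DESeq2's RLE factors, plus 1. Recomputed values differed from it by at most 0.000124, and it was not used further.

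Of 24557 rows, 5 repeated symbols were dropped, and 11211 of the 24552 genes passed filterByExpr. Diet came from the sample labels, with 4 libraries each. The quasi-likelihood F test of edgeR 4.0.16 (run under R 4.3.3) was used on RLE-scaled libraries, adjusted by Benjamini-Hochberg over the genes tested, after a check on simulated data. That check called 81 of 96 genes set to a log2 change of 2 in size, but 17 of 97 set to 1. A gene not called can thus still differ by such an amount. Calls needed both a 1.5-fold difference and an adjusted p below 0.05. Standard errors were derived from the fold change and F. Cftr and Slc26a6, which failed the filter, were compared by exact permutation of the libraries. The labels do not say that samples of a diet are separate animals, though the study counts 4 mice per diet, so p-values measure the spread between these libraries.

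The members and lists were chosen with earlier results of these data known, and Slc12a2, Slc12a8 and Cftr are among genes that the study picked on these libraries. For Slc12a2 the study also reported a rise under CR by quantitative PCR in further LG samples. Named are the 9 members, called genes and the highest and lowest tested gene of each family list, the 5 profiles nearest to Slc12a2 and to Ano1, and the markers. A listed gene is not reported here and was left out of the list counts. Profiles used log2 CPM with a prior count of 2. Positions are from GENCODE on GRCm38, which mm10 denotes. Alternatives were TMM, upper-quartile or no factors, DESeq2 1.42.0, voom of limma 3.58.1 with quality weights, robust dispersions, no filter, a minimum of 10 counts per library, calls by adjusted p alone, a replicate block, the parotid covariate and omitted libraries.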

Additional observations from a re-analysis of the deposited data

How the results depend on the processing

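Genes called numbered 222 in all, against 705 with DESeq2, 397 with limma voom, 436 without a filter, 700 with the replicate block, 1 with the parotid covariate and 656 without both AL replicate 4 and CR replicate 4, a setting chosen after seeing the data. Members called numbered 1, against 2 with no factors, DESeq2, no filter or the replicate block, 0 with robust dispersions or the covariate, and 3, Cftr among them, without both replicates 4. Of the other transport genes 2 were called, 3 with the replicate block (Ano10 added), 1 with upper-quartile or no factors and 0 with the covariate. Leaving out each library in turn gave 61 genes (without AL replicate 2) to 700 (without CR replicate 4), 0 to 3 members and 1 to 3 other transport genes.

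Slc12a2 passed the thresholds at a log2 fold change of 2.39 with no factors, 2.32 with DESeq2, without a filter and with at least 10 counts per library, 2.20 with voom, 2.02 with the replicate block and 2.45 without both replicates 4, with adjusted p from 0.000125 to 0.0465 over these. Slc12a8 was not called at 3.38 with voom or 3.35 with robust dispersions, and at least 10 counts per library left it untested. With the covariate, values were -0.062 for Slc12a2, 0.058 for Slc12a8, -0.23 for Clcn3, -0.054 for Slc4a2, 0.087 for Slc4a4, -0.26 for Slc4a7, 0.10 for Slc12a7, -1.24 for Slc4a11, -0.54 for Slc26a11, -1.03 for Clcn5 and 2.70 for Ttyh3. Voom gave 0.010 for Slc26a2. Without both replicates 4, Slc4a2 was 0.42, Slc12a7 0.28 and Slc26a2 0.043. Leaving out single libraries gave 1.98 to 2.67 for Slc12a2, 2.99 to 3.73 for Slc12a8, -0.10 to 0.36 for Slc4a2, -0.071 to 0.20 for Slc4a7, -0.080 to 0.85 for Slc12a4, -0.44 to 0.11 for Slc12a7, -0.30 to 0.02 for Slc26a2, -0.23 to 0.092 for Slc9a8, -1.003 to -0.40 for Clcn5 and 0.82 to 1.57 for Ttyh3, and a Cftr difference of 1.41 to 2.29 CPM. The cause of these changes was not tested. Same-numbered AL and CR libraries had correlations of 0.149, 0.0795, 0.244 and 0.462 and 3 of the 4 AL libraries correlated best with their own number, AL replicate 3 with CR replicate 1. Since 1 of the 4 correlations was under 0.1, the numbers were not taken to pair the libraries, and the rise in calls under the block is given as a hint only. Depth limits Cftr and Slc26a6, which had 0 counts in some libraries.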
